A study of Mus musculus with 19 samples.

Results

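The mitochondrial ribosomal proteins were taken as every gene symbol beginning with Mrpl or Mrps and a number that reached 1 FPKM (fragments per kilobase of transcript, scaled to the fragments mapped in the library) in at least 4 of the 19 libraries. All 77 matching symbols of the 18666 genes in the table met that minimum, 48 of them Mrpl and 29 Mrps. The libraries were made from dorsal root ganglion neurons sorted from male C57BL/6 mice of 2 months that carried a genetic GFP label in MrgprA3+ neurons, a class of itch-sensing sensory neurons. MrgprA3- neurons of the same ganglia came from a gate set on cells of similar shape. Allergic contact dermatitis (ACD) was produced with 0.5% squaric acid dibutylester in acetone, first on the abdomen and later on the back, control mice received acetone alone, and tissue was taken on day 13. This gave 4 libraries of MrgprA3+ neurons of ACD mice, 5 of MrgprA3+ neurons of control mice, 5 of MrgprA3- neurons of ACD mice and 5 of MrgprA3- neurons of control mice. The labels state 5 mice per treatment and that both populations were sorted from every animal, but they do not name the allele or driver of the label.

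Mitochondrial ribosomes translate the few messages encoded by mitochondrial DNA, all of which encode subunits of oxidative phosphorylation. Their RNA is mitochondrial, whereas all of their proteins are encoded in the nucleus, made on cytosolic ribosomes and imported. Many of these proteins have bacterial counterparts, and others were added in the mitochondrial lineage. In sensory neurons, whose long axons depend on mitochondrial ATP, they belong to the basic equipment of the cell rather than to any one subtype.

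By their place in the particle, 50 of the 77 encode proteins of the large subunit and 26 of the small one. The symbols do not follow the particle throughout. Mrps30 and Mrps18a are named for the small subunit but encode proteins of the large particle. Mrps36 encodes a subunit of the 2-oxoglutarate dehydrogenase complex and no protein of the mitoribosome, and it was kept because the rule goes by symbol. Mrps30 was closest to the minimum, with 1 FPKM or more in 10 libraries, followed by Mrps24 and Mrpl3 with 18 each, and no matching symbol lay outside it.

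Promoter sequence was at hand for 68 of the members, in RefSeq on GRCm38.p6, as the 250 bases before and 50 bases from the transcript start. The promoters below are those of the 4 genes that were higher in MrgprA3+ neurons in control and in ACD mice, Mrpl34, Mrpl36, Mrps15 and Mrps18a, and of Mrpl50, which was lower in control mice. Capitals mark the letters CCGGAAG (the core bound by GABP and other ETS factors), AAGATGGC (YY1) and the ZNF143 motif (ACTACA and TCCC, 2 free bases apart) on either strand. The NRF1 core GCATGCGC and the TATA box TATAAA were searched too and occur in none of the 5.
Mrpl34, chr8:71464676-71464975, + strand: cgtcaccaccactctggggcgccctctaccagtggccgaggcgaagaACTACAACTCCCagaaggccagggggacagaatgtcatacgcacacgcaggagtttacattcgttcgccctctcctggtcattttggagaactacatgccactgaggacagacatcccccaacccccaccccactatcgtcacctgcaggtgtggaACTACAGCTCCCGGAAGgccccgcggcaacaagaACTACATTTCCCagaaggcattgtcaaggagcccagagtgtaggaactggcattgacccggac
Mrpl36, chr13:73330759-73331058, + strand: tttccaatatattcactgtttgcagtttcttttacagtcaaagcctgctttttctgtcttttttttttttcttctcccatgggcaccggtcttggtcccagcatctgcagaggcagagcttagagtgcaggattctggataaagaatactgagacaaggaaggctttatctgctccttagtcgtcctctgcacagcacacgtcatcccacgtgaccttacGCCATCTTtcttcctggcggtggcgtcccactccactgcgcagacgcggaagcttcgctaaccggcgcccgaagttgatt
Mrps15, chr4:126046678-126046977, + strand: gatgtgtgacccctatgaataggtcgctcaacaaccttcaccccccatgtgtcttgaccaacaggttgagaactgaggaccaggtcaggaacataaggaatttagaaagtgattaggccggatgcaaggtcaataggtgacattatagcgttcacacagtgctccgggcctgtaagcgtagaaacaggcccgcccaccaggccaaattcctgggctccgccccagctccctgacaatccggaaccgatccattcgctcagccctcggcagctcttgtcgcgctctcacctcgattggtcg
Mrps18a, chr17:46110754-46111053, + strand: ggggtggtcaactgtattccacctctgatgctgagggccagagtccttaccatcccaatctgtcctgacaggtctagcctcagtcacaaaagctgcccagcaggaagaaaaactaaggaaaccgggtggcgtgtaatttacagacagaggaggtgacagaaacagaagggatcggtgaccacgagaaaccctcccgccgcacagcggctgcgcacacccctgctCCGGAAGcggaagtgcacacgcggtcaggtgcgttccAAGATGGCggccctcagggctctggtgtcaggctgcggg
Mrpl50, chr4:49521034-49521333, - strand: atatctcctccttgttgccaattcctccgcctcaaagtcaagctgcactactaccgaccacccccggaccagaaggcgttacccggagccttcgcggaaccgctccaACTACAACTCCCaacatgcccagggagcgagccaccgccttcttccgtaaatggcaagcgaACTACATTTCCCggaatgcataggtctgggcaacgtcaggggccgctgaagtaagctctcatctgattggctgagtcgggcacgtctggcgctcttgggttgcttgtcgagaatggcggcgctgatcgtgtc

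No motif searched was shared by all of these windows. Mrpl34 held 3 ZNF143 motifs, the middle one running into a GABP motif. Mrps18a held a GABP and a YY1 motif, Mrpl36 a YY1 motif on the other strand, Mrpl50 2 ZNF143 motifs, and Mrps15 none of the motifs in capitals. Of the common promoter boxes, which are not in capitals, CCAAT occurred on either strand in all of these windows but that of Mrpl34, and the Sp1 box GGGCGG in that of Mrps15 only. Over all 68 promoters the GABP letters occurred in 24 (35.3%), against 18.6% of the 9528 expressed genes with a promoter and 9.12% of all 27025 promoters. The YY1 letters occurred in 12 members (17.6%), against 4.88% of expressed genes and 2.88% of all promoters. The NRF1 core was found in 8 members (11.8%), against 5.64% and 2.81%, and 32 members held none of these 3. The ZNF143 letters, added after the sequences had been read, were in 5 members (7.35%: Mrpl42, Mrpl24, Mrpl50, Mrpl34 and Mrps22), against 4.597% and 1.98%. Over all 68 promoters, the Sp1 box was present in 34 of the 68 members and 64.5% of expressed genes, the CCAAT box in 39.7% and 39.2%, and TATAAA in 5.88% and 6.79%. A GABP and a YY1 motif stood together in 3 member promoters and overlapped in none, and a GABP and a ZNF143 motif overlapped in 1. These are matches of letters, described without a test.

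Before the members are compared, the libraries themselves need a short account. Mrgpra3 ranged from 836 to 1446 FPKM in MrgprA3+ and from 14.0 to 26.4 FPKM in MrgprA3- libraries. Depth, read from the steps between the lowest FPKM values, came to about 10.3 M to 21.1 M fragments. MrgprA3+ libraries had 13448 to 14360 genes above 0 and 0.0 to 28.3 FPKM of the 28S ribosomal RNA gene Rn28s1, against 15534 to 16163 genes and 93.9 to 526 FPKM in MrgprA3- libraries. All 12 markers of sensory neurons exceeded 10 FPKM in every library. Of the 8 markers of satellite glia and Schwann cells tested, 3 were lower and 1 (Pmp22) higher in MrgprA3+ neurons of ACD mice, and 6 lower and 1 (Pmp22) higher in those of control mice. Summed over 12 glial markers, levels were 1465 to 1841 FPKM in MrgprA3+ and 1363 to 1628 FPKM in MrgprA3- libraries, most of it Pmp22 and Apoe, while Gfap reached at most 0.27 and Mag at most 0.30 FPKM in any library. Immune markers summed to 0.17 to 3.80 FPKM in MrgprA3+ and to 1.89 to 15.8 FPKM in MrgprA3- libraries, endothelial markers to at most 3.46 FPKM and red cell markers to at most 10.1 FPKM in any library. The part of these contrasts in the differences below was not tested. In bulk libraries fewer cells of a type and less RNA per cell cannot be told apart.

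All members were expressed, over a 92.9-fold range of mean level. FPKM is scaled to transcript length, which permits only a rough comparison between genes. The annotation behind the lengths and the quantification program are not given. The highest were Mrpl28 (110.4 FPKM over the 19 libraries), Mrps18a (84.1), Mrpl20 (80.6), Mrpl42 (72.0) and Mrpl12 (69.6). Mrpl28 and Mrpl20 are large-subunit proteins of bacterial descent, Mrpl42 is specific to mitochondria, and Mrpl12 forms the stalk that meets the translation factors. At the bottom lay Mrps30 (1.19 FPKM), Mrps24 (2.37), Mrps28 (4.19), Mrpl3 (4.69) and Mrpl1 (7.51), the last of which forms the stalk where the used tRNA leaves. The median member had 28.5 FPKM, 69 members averaged 10 FPKM or more and 4 less than 5 FPKM. The 10 highest held 30.2% of the summed FPKM.

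**Figure D1:**
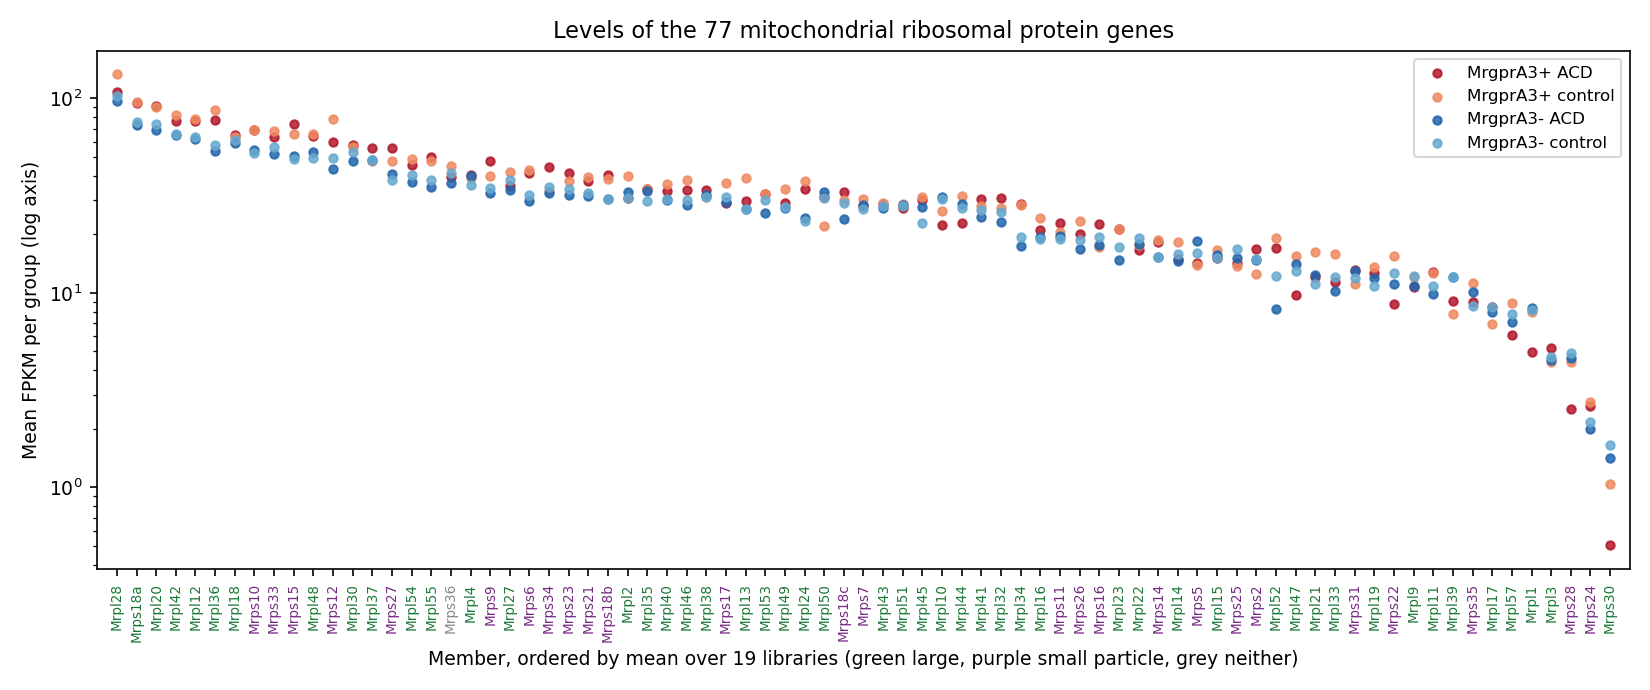
Mean FPKM of each of the 77 members in MrgprA3+ ACD (n = 4), MrgprA3+ control, MrgprA3- ACD and MrgprA3- control libraries (n = 5 each), on a log axis and ordered by the mean over 19 libraries. Levels run from Mrpl28 at 110.4 FPKM to Mrps30 at 1.19 FPKM, and the 4 groups keep nearly the same order.

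The top and bottom of this order show how close neighbours were. Mrpl28 had 113, 95.8, 127 and 96.0 FPKM in MrgprA3+ ACD, 103, 159, 129.7, 177 and 96.3 in MrgprA3+ control, 90.2, 98.2, 105, 109 and 83.4 in MrgprA3- ACD libraries and 124, 105, 87.8, 109 and 89.7 in MrgprA3- control libraries. Mrps18a, second in rank, had 83.2, 107, 97.8 and 89.2 FPKM in MrgprA3+ ACD, 84.2, 93.3, 95.6, 97.9 and 106 in MrgprA3+ control, 69.4, 72.2, 70.6, 91.8 and 59.3 in MrgprA3- ACD libraries and 83.6, 73.0, 69.7, 79.0 and 74.7 in MrgprA3- control libraries. The values of the pair overlapped in every group but MrgprA3- control, where Mrpl28 was higher throughout. Mrps30, the lowest, had 0.820, 0.210, 0.760 and 0.230 FPKM in MrgprA3+ ACD, 0.240, 1.76, 1.90, 0.550 and 0.760 in MrgprA3+ control, 1.34, 1.51, 2.11, 0.760 and 1.37 in MrgprA3- ACD libraries and 2.37, 2.01, 0.900, 1.16 and 1.83 in MrgprA3- control libraries. None of its 4 values in MrgprA3+ ACD libraries reached 1 FPKM, so its differences rest on few reads.

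The order of the members was much the same in every group. Across the 77 genes, which share libraries and are not independent, the correlation of group means lay between 0.969 and 0.993 (Pearson). Within groups the coefficient of variation had a median of 17.2% and ran from 8.88% for Mrpl46, a large-subunit protein specific to mitochondria, to 51.9% for Mrps30. Mrps34, a small-subunit protein at a mean of 36.0 FPKM, varied by 45.2%. It had 42.8, 62.4, 24.7 and 47.6 FPKM in MrgprA3+ ACD, 53.3, 39.8, 55.7, 9.84 and 8.68 in MrgprA3+ control, 33.7, 41.3, 30.4, 15.4 and 42.5 in MrgprA3- ACD libraries and 41.0, 48.1, 39.5, 38.8 and 8.24 in MrgprA3- control libraries. Most values lay above 30 FPKM, while 3 control libraries, 2 of them MrgprA3+, had less than 10 FPKM. Mrpl3, at 51.4%, had 3.81, 9.43, 2.07 and 5.58 FPKM in MrgprA3+ ACD, 3.59, 8.50, 8.30, 0.480 and 1.09 in MrgprA3+ control, 4.58, 4.66, 5.46, 2.49 and 5.51 in MrgprA3- ACD libraries and 3.85, 4.86, 6.37, 2.73 and 5.67 in MrgprA3- control libraries. Its 2 lowest values came from MrgprA3+ control replicates 4 and 5, in which Mrps34 was low as well. In ACD mice replicate 4 of either population was the lowest of its group for both genes. The match was not complete, as MrgprA3- control replicate 5 had 8.24 FPKM of Mrps34 but 5.67 FPKM of Mrpl3.

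Summed over the members, the level was higher in most MrgprA3+ than in MrgprA3- libraries. The sums were 2678, 2663, 2791 and 2102 FPKM in MrgprA3+ and 2224, 2034, 2214, 2427 and 2001 FPKM in MrgprA3- libraries of ACD mice. They were 2668, 2600.1, 2470.1, 2922 and 2633 FPKM in MrgprA3+ and 2485, 2214, 2048, 2280.3 and 2207 FPKM in MrgprA3- libraries of control mice. In ACD mice 3 MrgprA3+ libraries lay above all MrgprA3- libraries, and replicate 5 lay among them. In control mice the groups met at 1 point, where the lowest MrgprA3+ library fell just under the highest MrgprA3- one.

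**Figure D2:**
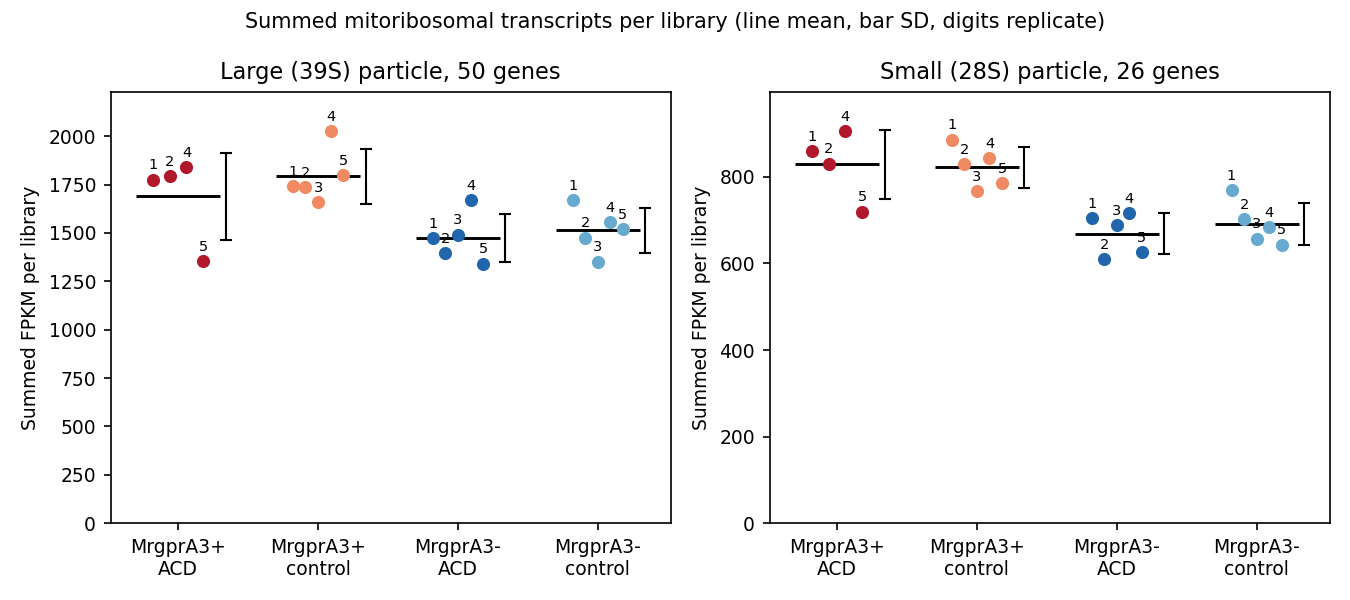
Summed FPKM of the 50 large-particle genes and the 26 small-particle genes in each library, with group means, SDs and replicate numbers. MrgprA3+ ACD replicate 5, at 1355 and 719.7 FPKM, lies below the other MrgprA3+ libraries in both particles, but above all MrgprA3- ACD libraries (at most 716.6 FPKM) in the small one.

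As a share of all FPKM, the members made up 0.542% ± 0.0541 in MrgprA3+ ACD, 0.559% ± 0.0236 in MrgprA3+ control, 0.497% ± 0.0343 in MrgprA3- ACD libraries and 0.5098% ± 0.0260 in MrgprA3- control libraries (SD, n = 4, 5, 5 and 5). Replicate 5 of MrgprA3+ ACD was also the lowest library in its population for cytosolic ribosomal proteins, with a sum of 6143 FPKM against 8846 to 11245 FPKM in the other MrgprA3+ libraries. Its sum for nuclear subunits of oxidative phosphorylation was 7792 FPKM, against 9171 to 10857 FPKM in the others. The ratio of large-particle to small-particle sums averaged 2.03 ± 0.114 in MrgprA3+ ACD, 2.18 ± 0.169 in MrgprA3+ control, 2.20 ± 0.102 in MrgprA3- ACD libraries and 2.19 ± 0.125 in MrgprA3- control libraries. These group means lay within 1 or 2 SDs of each other.

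In control mice, the labelled and unlabelled neurons were compared gene by gene with limma on log2(FPKM + 1). Of the 77 members 9 were higher and 2 lower in MrgprA3+ neurons, and 66 did not pass (Benjamini-Hochberg adjusted p below 0.05 over 11996 genes). Those shares, 11.7% and 2.60%, stand against a background of 8.64% of all genes higher and 18.4% lower. The members leaned upward, with 60 of 77 differences above 0 and a median of 0.19 (log2), against a median of -0.14 over all genes tested. The 9 higher genes comprised Mrpl24, Mrpl36, Mrpl34, Mrpl13, Mrpl46 and Mrps18a of the large and Mrps12, Mrps15 and Mrps10 of the small subunit, and the 2 lower ones, Mrpl39 and Mrpl50, are large-subunit proteins specific to mitochondria.

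Among the higher genes of bacterial descent, Mrpl24 encodes a protein that binds ribosomal RNA early in assembly in bacteria. It had 32.8, 32.6, 30.9, 53.1 and 37.5 FPKM in MrgprA3+ and 25.4, 23.2, 21.2, 26.1 and 21.0 FPKM in MrgprA3- libraries. Every MrgprA3+ library lay above every MrgprA3- library, and the difference of 0.63 (SE 0.17) had an adjusted p of 0.00737. Mrps12 encodes a protein of the decoding centre. It had 83.8, 61.9, 56.6, 101 and 87.1 FPKM in MrgprA3+ and 58.6, 46.6, 46.7, 52.0 and 43.4 FPKM in MrgprA3- libraries. The groups overlapped through a single library on each side, and the difference was 0.62 (SE 0.18, adjusted p 0.0143).

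The pair that fell went below by less than a factor of 2 in level. Mrpl50 had 24.2, 16.9, 22.9, 23.9 and 22.5 FPKM in MrgprA3+ and 28.1, 31.2, 30.6, 31.8 and 31.2 FPKM in MrgprA3- libraries. All 5 MrgprA3+ values lay below all 5 MrgprA3- values, a difference of -0.46 (SE 0.13, adjusted p 0.0121). Mrpl39 had 6.09, 9.42, 6.89, 8.39 and 8.22 FPKM in MrgprA3+ and 13.2, 11.9, 12.3, 9.28 and 14.0 FPKM in MrgprA3- libraries. Only the lowest MrgprA3- value entered the range of the MrgprA3+ libraries, and the difference was -0.58 (SE 0.19, adjusted p 0.0230).

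The remaining 3 that rose in control mice alone had smaller differences than Mrpl24 and Mrps12. Mrpl13, a core protein of the large subunit, averaged 38.96 ± 7.48 FPKM in MrgprA3+ and 26.9 ± 3.06 FPKM in MrgprA3- neurons (SD, n = 5 each), a difference of 0.51. Mrps10 averaged 68.6 ± 4.25 against 52.5 ± 7.37 FPKM (0.39), and Mrpl46 38.0 ± 4.18 against 30.1 ± 2.70 FPKM (0.33). Their adjusted p were 0.0222, 0.0206 and 0.0404. For Mrpl13 and Mrpl46 every MrgprA3+ library lay above every MrgprA3- library, while the groups overlapped for Mrps10. Just outside the threshold stood Mrpl48 (0.37), Mrpl21 (0.50) and Mrpl45 (0.41), at an adjusted p of 0.0505, 0.0508 and 0.0509. Mrpl45, which anchors the mitoribosome near the inner membrane, averaged 31.1 ± 7.88 FPKM in MrgprA3+ and 22.8 ± 3.28 FPKM in MrgprA3- neurons.

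How many members passed depended on the scale. After median-ratio rescaling between libraries 20 were higher and 0 lower, with the 9 higher genes among the 20, against a background of 11.9% higher and 14.4% lower. Mrpl50 and Mrpl39 kept a negative difference but did not pass there, and without MrgprA3+ control replicate 4 the count of higher members was 5. Without that library 1001 of the 11935 genes tested were higher, a larger share than among the members.

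In ACD mice 7 members were higher and 0 lower in MrgprA3+ neurons, and 70 did not pass, with limma and the same adjustment. The share of 9.09% compares with 6.84% of all genes higher and 15.2% lower. Of the 77 differences 55 lay above 0, with a median of 0.15 against -0.12 over all genes. The higher genes were Mrpl52, Mrpl34, Mrpl36 and Mrps18a of the large and Mrps15, Mrps9 and Mrps27 of the small subunit. With the same test 24 of the 77 members had an unadjusted p below 0.05, in either direction, as did 4164 of the 11996 genes tested.

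Mrpl52, a large-subunit protein specific to mitochondria, differed most. It had 19.4, 22, 16.4 and 10.1 FPKM in MrgprA3+ and 11.6, 4.68, 9.90, 8.80 and 6.14 FPKM in MrgprA3- libraries. The groups overlapped only through MrgprA3+ ACD replicate 5 and the highest MrgprA3- value, and the difference was 0.97 (SE 0.25, adjusted p 0.00779). Mrps27, a small-subunit protein with RNA-binding repeats, had 67.3, 47.6, 52.6 and 54.6 FPKM in MrgprA3+ and 41.1, 43.9, 44.2, 36.4 and 39.2 FPKM in MrgprA3- libraries. Here the groups did not overlap, and the difference was 0.42 (SE 0.13, adjusted p 0.0215). Mrps9, a small-subunit protein near the site of peptidyl tRNA in bacteria, averaged 47.7 ± 10.2 FPKM in MrgprA3+ (SD, n = 4) and 32.5 ± 3.95 FPKM in MrgprA3- neurons (SD, n = 5), a difference of 0.52 (adjusted p 0.0263).

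The library of MrgprA3+ ACD replicate 5, low in the sums above, weighed on this comparison. Without it 16 members were higher and 1 lower, the 7 among them, and Mrpl55 (0.41 with all libraries) then reached 0.72 and Mrpl20 0.54. Over all genes 1010 of 11953 were then higher and 1975 lower. Without MrgprA3+ ACD replicate 2 the count of higher members was 4, beside 686 of 11955 genes. Without MrgprA3- ACD replicate 5 it was 3, beside 621 of 11955 genes. In either fit the share of members higher was below that of all genes. Median-ratio rescaling gave 14 members higher and 0 lower, against a background of 9.81% and 12.3%.

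Only Mrpl34, Mrpl36, Mrps15 and Mrps18a passed in both comparisons, which use separate libraries but 1 shared estimate of the spread. How many of all genes passed in both was not counted. With the replicate number as a block, Mrpl34 did not pass in control mice and Mrpl52 passed in both. Mrpl34 and Mrpl36 are small proteins of the large subunit with bacterial counterparts. Mrps15 binds the RNA of the small subunit, and Mrps18a is 1 of 3 related S18 proteins.

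Mrps15 had 74.7, 61.0, 86.8 and 72.8 FPKM in MrgprA3+ and 51.1, 42.5, 50.1, 59.3 and 48.4 FPKM in MrgprA3- libraries of ACD mice. In control mice it had 80.9, 59.4, 61.1, 72.0 and 55.4 FPKM in MrgprA3+ and 53.5, 47.0, 46.9, 52.6 and 45.1 FPKM in MrgprA3- libraries. In both treatments every MrgprA3+ value lay above every MrgprA3- value, with differences of 0.54 (SE 0.13, adjusted p 0.00414) in ACD and 0.41 (SE 0.12, adjusted p 0.0166) in control mice.

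Mrpl36 had 88.9, 96.3, 70.8 and 52.2 FPKM in MrgprA3+ and 57.7, 51.5, 50.3, 59.2 and 48.0 FPKM in MrgprA3- libraries of ACD mice. In control mice the values were 80.2, 68.0, 93.1, 107 and 88.0 FPKM in MrgprA3+ and 60.9, 62.7, 53.3, 55.7 and 55.1 FPKM in MrgprA3- libraries. The control groups did not overlap, whereas in ACD mice replicate 5 of MrgprA3+ neurons fell among the MrgprA3- values. The differences were 0.49 (SE 0.15, adjusted p 0.0214) in ACD and 0.58 (SE 0.14, adjusted p 0.00372) in control mice.

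Mrpl34 had 25.3, 34.3, 32.5 and 22.5 FPKM in MrgprA3+ and 19.4, 15.9, 19.1, 17.2 and 15.3 FPKM in MrgprA3- libraries of ACD mice. In control mice it had 29.9, 27.8, 20.2, 41.5 and 22.8 FPKM in MrgprA3+ and 23.2, 14.97, 20.1, 17.0 and 21.4 FPKM in MrgprA3- libraries. The groups were apart in ACD mice and overlapped in control mice, where MrgprA3+ replicates 3 and 5 lay within the MrgprA3- range. The differences were 0.67 (SE 0.19, adjusted p 0.0116) in ACD and 0.51 (SE 0.18, adjusted p 0.0361) in control mice. Under the 27 alternatives the difference passed in all for ACD mice and in 18 for control mice. Some of these leave out a library of the other treatment, which cannot change the difference itself.

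Of the S18 proteins, only Mrps18a passed. With the values given above it differed by 0.38 (SE 0.12, adjusted p 0.0212) in ACD and by 0.32 (SE 0.11, adjusted p 0.0325) in control mice. The MrgprA3+ libraries of control mice lay above all MrgprA3- ones, and in ACD mice MrgprA3- replicate 4 reached into the MrgprA3+ range. Mrps18b, which sits in the small subunit, averaged 40.4 ± 9.56 in MrgprA3+ and 30.3 ± 1.13 FPKM in MrgprA3- neurons of ACD mice (adjusted p 0.0989), and 38.5 ± 8.77 against 30.3 ± 3.52 FPKM in control mice (adjusted p 0.128). Mrps18c, the closest counterpart of bacterial S18, averaged 33.0 ± 6.46 against 23.95 ± 8.75 FPKM in ACD mice (adjusted p 0.10) and 30.2 ± 6.10 against 28.9 ± 2.10 FPKM in control mice (adjusted p 0.917). Differences among the 3 proteins were not tested.

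**Figure D3:**
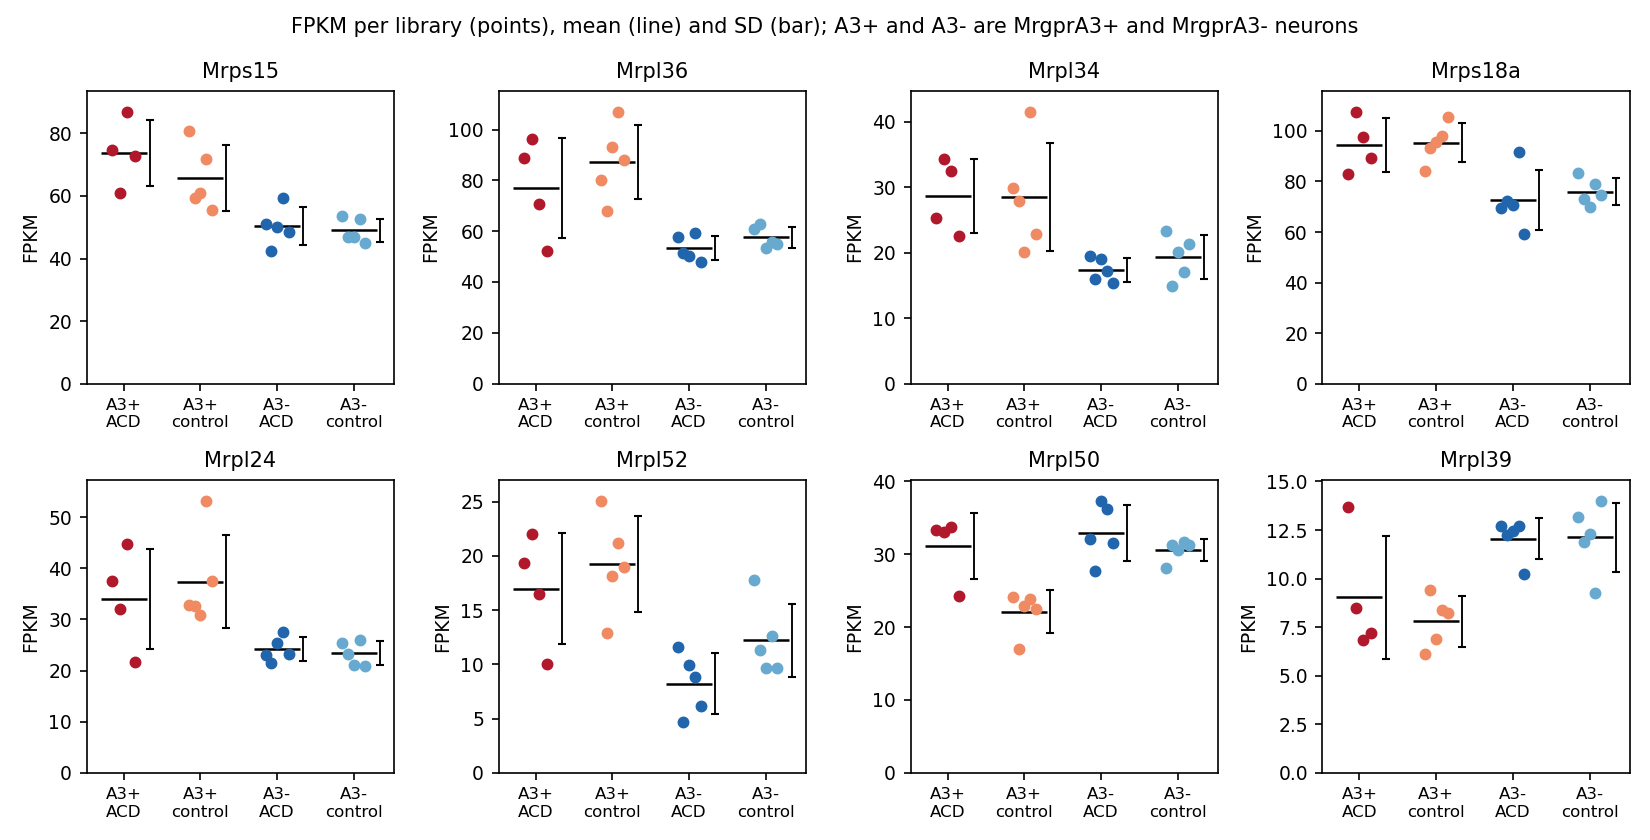
FPKM of 8 members in each library, with group mean and SD, for MrgprA3+ and MrgprA3- neurons (A3+ and A3-) of ACD and control mice. Mrps15 is higher in every MrgprA3+ library than in any MrgprA3- library of the same treatment, while Mrpl50 is low in the 5 MrgprA3+ control libraries.

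Of the 5 least abundant members 3 had negative differences in both treatments, none of which passed. Mrps28, counterpart of bacterial ribosomal protein S1, had 3.07, 1.89, 2.81 and 2.31 FPKM in MrgprA3+ and 5.20, 3.62, 4.47, 6.15 and 3.56 FPKM in MrgprA3- libraries of ACD mice. Mrpl1 had 5.00, 5.83, 3.55 and 5.45 FPKM in MrgprA3+ and 7.86, 7.39, 7.81, 10.2 and 8.76 FPKM in MrgprA3- libraries of ACD mice. For both genes the MrgprA3+ libraries of ACD mice all lay below the MrgprA3- ones, with differences of -0.66 (adjusted p 0.0568) and -0.67 (adjusted p 0.0636). In control mice the groups overlapped, and the differences were -0.18 for Mrps28 and -0.12 for Mrpl1. Mrps30 differed by -0.69 in ACD (adjusted p 0.0703) and by -0.42 in control mice (adjusted p 0.229), Mrps24 by 0.26 and 0.26, and Mrpl3 by 0.061 and -0.41.

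The most abundant members other than Mrps18a did not pass either. Mrpl28 differed by 0.15 in ACD and 0.34 in control mice, Mrpl20 by 0.38 and 0.29, Mrpl42 by 0.26 and 0.29, and Mrpl12 by 0.30 and 0.29. Their adjusted p (limma) lay between 0.0558 and 0.540. Mrpl12 had 82.6, 76.6, 89.7 and 58.8 FPKM in MrgprA3+ and 57.4, 64.9, 57.0, 70.3 and 58.7 FPKM in MrgprA3- libraries of ACD mice. In control mice it had 75.4, 99.4, 65.1, 87.9 and 62.8 FPKM in MrgprA3+ and 68.7, 60.6, 52.6, 70.7 and 62.4 FPKM in MrgprA3- libraries. The groups overlapped in both treatments. Mrps12, higher in control mice, averaged 59.5 ± 23.5 FPKM in MrgprA3+ and 43.3 ± 6.52 FPKM in MrgprA3- neurons of ACD mice and did not pass there (0.39, adjusted p 0.161).

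Across the list, 63 members passed in neither comparison, with differences of -0.69 to 0.50 in ACD mice and of -0.42 to 0.50 in control mice. Of all 77, 12 members were higher in at least 1 of the comparisons, 48 had a positive and 10 a negative difference in both. How many of all genes met these joint criteria was not counted. Taken singly, 40.4% of all genes tested had a positive difference in ACD mice and 39.1% in control mice. Positive differences were more frequent among abundant members. Of the 39 members at a mean of 28.5 FPKM or more, 34 had a positive difference in ACD mice (median 0.26) and 36 in control mice (median 0.27). Of the 38 below that level 21 were positive in ACD mice (median 0.03) and 24 in control mice (median 0.08). The scale log2(FPKM + 1) shrinks differences at low level, and its part in this split was not tested. How all genes split by level was not counted. With a minimum of 5 FPKM the median of all genes was -0.06 in ACD and -0.08 in control mice. With the minimum of 1 FPKM it was -0.12 and -0.14, so all genes moved upward too when low ones were left out. By particle, 4 large and 3 small proteins were higher in ACD mice, and 6 and 3 in control mice, where both lower members were large. Median differences were 0.10 for the large and 0.26 for the small particle in ACD mice, and 0.19 and 0.20 in control mice. Of the 30 large-subunit proteins with bacterial counterparts 2 were higher in ACD and 4 in control mice. Of the 19 specific to mitochondria 1 was higher in ACD and 1 in control mice, when 2 were lower. The small subunit had 2 of 16 bacterial and 1 of 9 mitochondrial proteins higher in ACD mice, and 3 of 16 and 0 of 9 in control mice. These small counts stand against 6.84% of all genes higher in ACD mice and 8.64% in control mice. The background lower was 15.2% and 18.4%. Mrps36, which is no mitoribosomal protein, differed by 0.094 in ACD and 0.11 in control mice and did not pass.

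**Figure D4:**
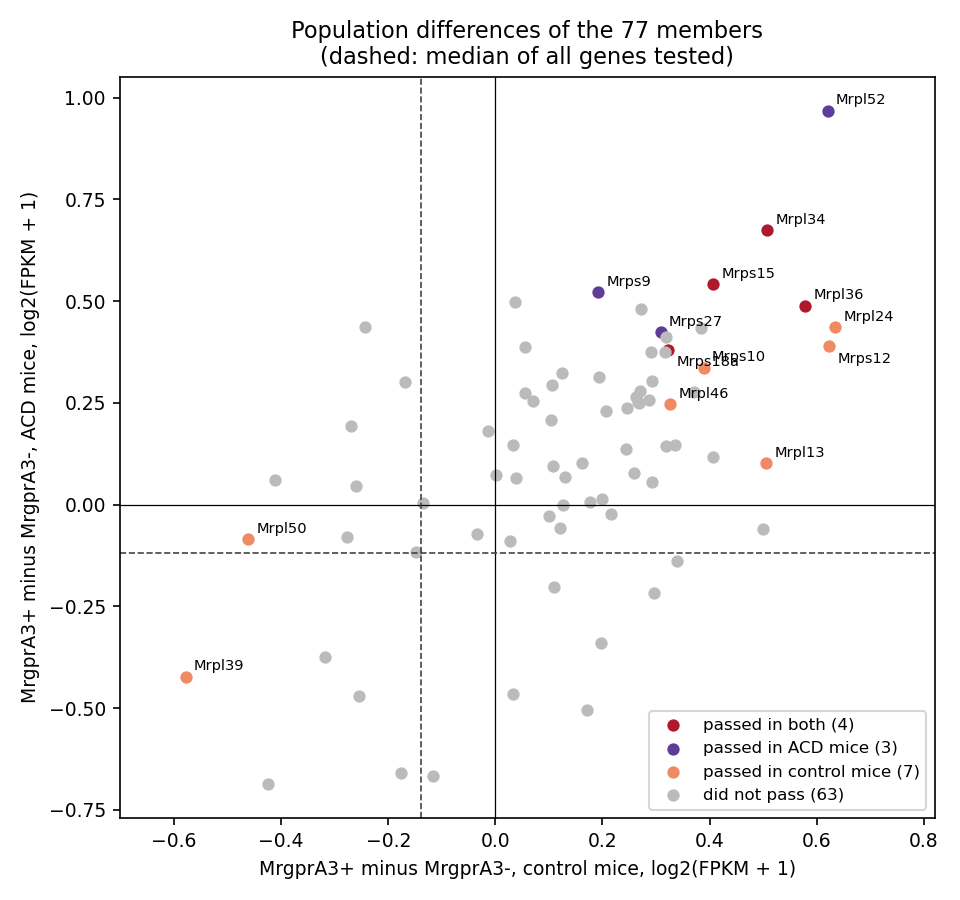
Difference in mean log2(FPKM + 1), MrgprA3+ minus MrgprA3- neurons, of each of the 77 members in control mice (x) and in ACD mice (y), with dashed lines at the medians of all genes tested (-0.12 in ACD and -0.14 in control mice). The 4 members that passed in both lie at upper right, 3 passed in ACD mice only and 7 in control mice only.

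No member passed the test for dermatitis in either population. In MrgprA3+ neurons 0 of 77 passed with limma, as did 0.0% of all genes, and 1 member against 5.54% of all genes had an unadjusted p below 0.05. In MrgprA3- neurons 0 of 77 passed, against 0.108% of all genes, and 2 members against 8.44% of all genes had an unadjusted p below 0.05. The counts over all genes depended on the libraries in the fit. With all 19 libraries, 25 of 11996 genes were higher and 17 lower in MrgprA3+ neurons, and 0 passed in MrgprA3- neurons. Members that passed numbered 0 in both of these fits. The median difference, ACD minus control, was -0.04 in MrgprA3+ neurons (all genes -0.01) and -0.05 in MrgprA3- neurons (all genes -0.02). Negative differences numbered 51 of 77 in MrgprA3+ and 48 of 77 in MrgprA3- neurons. Over all genes they numbered 6164 of 11996 in MrgprA3+ and 6613 of 11996 in MrgprA3- neurons, so all genes leaned the same way. These medians depended on single libraries. Without MrgprA3+ ACD replicate 5 the median in MrgprA3+ neurons was 0.047 (all genes -0.0086), and leaving out each library gave -0.096 to 0.047. In MrgprA3- neurons leaving out each library gave -0.106 to -0.012.

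The member of smallest p in MrgprA3+ neurons was Mrpl50. It had 33.3, 33.1, 33.8 and 24.3 FPKM in ACD and 24.2, 16.9, 22.9, 23.9 and 22.5 FPKM in control libraries. All 4 ACD values lay above all 5 control values, though replicate 5 only just, and the difference was 0.48 (SE 0.20, unadjusted p 0.0309, adjusted p 0.875 with limma). In MrgprA3- neurons the same gene averaged 33.0 ± 3.84 FPKM in ACD and 30.6 ± 1.44 FPKM in control libraries, a difference of 0.10. The next in MrgprA3+ neurons were Mrps2 (0.43) and Mrps34 (0.70) among positive and Mrpl44 (-0.46), Mrpl13 (-0.41) and Mrps12 (-0.43) among negative differences. Their SEs lay between 0.21 and 0.49. Mrps34 rests on the uneven libraries described above.

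In MrgprA3- neurons the smallest p belonged to Mrpl45 and Mrpl52. Mrpl45 had 24.9, 28.2, 27.98, 31.3 and 26.3 FPKM in ACD and 19.4, 27.4, 20.0, 23.2 and 24.2 FPKM in control libraries. Mrpl52 had 11.6, 4.68, 9.90, 8.80 and 6.14 FPKM in ACD and 17.8, 11.3, 9.68, 12.6 and 9.63 FPKM in control libraries. The groups overlapped for both genes, with differences of 0.28 (SE 0.11, unadjusted p 0.0209) and -0.54 (SE 0.21, unadjusted p 0.0218), and limma gave both an adjusted p of 0.510. Mrpl35 (0.16) and Mrps5 (0.21) followed among positive and Mrpl23 (-0.22) and Mrps12 (-0.19) among negative differences.

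The effect of dermatitis was not found to differ between the populations. The interaction passed in 0 of 77 members and 0.0% of all genes with limma, and 1 member against 4.61% of all genes had an unadjusted p below 0.05. That member was Mrpl44, a large-subunit protein related to RNase III. It had 28.9, 25.5, 19.4 and 17.2 FPKM in ACD and 32.8, 40.4, 28.1, 23.9 and 32.6 FPKM in control libraries of MrgprA3+ neurons. In MrgprA3- neurons it had 29.5, 28.1, 26.3, 27.7 and 31.4 FPKM in ACD and 30.8, 26.8, 23.9, 30.7 and 23.7 FPKM in control libraries. ACD minus control came to -0.46 in MrgprA3+ and 0.076 in MrgprA3- neurons, and the difference of these effects was -0.54 (SE 0.23, unadjusted p 0.0257, adjusted p 0.994). The next were Mrpl50 (0.38), Mrps2 (0.46) and Mrps16 (0.47) on the positive and Mrpl21 (-0.56) and Mrpl2 (-0.48) on the negative side. With SEs of 0.19 to 0.29 for these genes, effects of the size seen between the populations could have gone undetected. Members that passed between the populations in 1 treatment only are therefore not shown to depend on treatment.

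Other genes of mitochondrial gene expression had median differences nearer to 0 or below it. Their counts stand against the background shares of all genes given above, 6.84% higher and 15.2% lower in ACD mice and 8.64% higher and 18.4% lower in control mice. Of 7 further proteins of the mitoribosome or its membrane contact 0 passed in MrgprA3+ against MrgprA3- neurons of ACD mice (limma, also 0 at an unadjusted p below 0.05), and 0 were higher and 1 lower in control mice, with medians of 0.049 in ACD and -0.059 in control mice. The lower one was Ptcd3, a small-subunit protein with RNA-binding repeats, at 11.2 ± 4.44 FPKM in MrgprA3+ and 22.1 ± 3.22 FPKM in MrgprA3- neurons of control mice (-1.01, SE 0.22, adjusted p 0.00136). Of 26 assembly factors 0 were higher and 2 lower in ACD mice, and 1 higher and 4 lower in control mice. The shares lower, 7.69% and 15.4%, lay below the background. Mterf3, Dhx30 and Tfb1m, which act on mitochondrial transcription or ribosomal RNA, fell by 1.13, 0.54 and 0.77 on the log2 scale in control mice, while Mterf4, which guides methylation of ribosomal RNA, rose by 0.60.

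Of 14 mitochondrial translation factors 1 was higher and 2 lower in ACD mice, and 1 higher and 1 lower in control mice. Gfm1, the elongation factor that moves the ribosome along the message, averaged 8.78 ± 2.19 FPKM in MrgprA3+ and 24.8 ± 2.89 FPKM in MrgprA3- neurons of ACD mice, and 8.38 ± 5.38 against 21.5 ± 1.45 FPKM in control mice. Its differences of -1.41 (adjusted p 3.36e-04) and -1.42 (adjusted p 1.20e-04) exceeded those of any member. Guf1, a factor related to bacterial LepA, went the other way, at 4.90 FPKM in MrgprA3+ and 0.868 FPKM in MrgprA3- neurons of ACD mice (1.60), and 2.82 against 1.1 FPKM in control mice (0.76). Of 17 mitochondrial tRNA synthetases 1 was higher and 1 lower in ACD mice, and 2 higher and 3 lower in control mice. These shares, 5.88% higher and 5.88% lower in ACD mice and 11.8% higher and 17.6% lower in control mice, lay near or below the background. Sars2, which charges serine, rose in both (ACD 0.76, control 0.87), and Wars2, which charges tryptophan, fell in both (ACD -0.90, control -0.91).

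Of 17 genes of mitochondrial DNA maintenance and expression 0 were higher and 1 lower in ACD mice, and 0 higher and 3 lower in control mice, with medians of -0.30 and -0.36. The shares lower, 5.88% and 17.6%, did not exceed the background. Pnpt1, a polynucleotide phosphorylase, fell in both (ACD -0.88, control -0.87). Of 9 regulators of mitochondrial biogenesis 0 were higher and 4 lower in either treatment: Myc, the coactivators Ppargc1a and Ppargc1b, and Gabpa, the DNA-binding subunit of GABP, together 44.4% of this short list. Gabpa averaged 1.45 ± 0.306 FPKM in MrgprA3+ and 3.88 ± 0.420 FPKM in MrgprA3- neurons of ACD mice (-1.0, adjusted p 0.00928), and 1.64 ± 1.07 against 3.87 ± 1.05 FPKM in control mice (-0.95, adjusted p 0.00706). Both coactivators were below 2 FPKM in all 4 group means.

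Of 27 import proteins and chaperones 5 were higher and 1 lower in ACD mice (median 0.18), and 3 higher and 2 lower in control mice (median 0.10). The mitochondrial ribosomal proteins had medians of 0.15 in ACD and 0.19 in control mice, so in ACD mice the import list lay slightly above them. These lists were not tested against each other. The shares higher were 18.5% and 11.1%, the second close to the background. Tomm5, a small subunit of the outer-membrane pore, averaged 87.3 ± 22.7 FPKM in MrgprA3+ and 39.1 ± 5.54 FPKM in MrgprA3- neurons of ACD mice (1.11), and 97.7 ± 15.4 against 36.6 ± 6.01 FPKM in control mice (1.39). Timm8a1 and Timm13, chaperones of the space between the membranes, rose as well, whereas Hspa9, the matrix chaperone that pulls proteins in, fell (ACD -0.49, control -0.64). Of 77 nuclear subunits of oxidative phosphorylation 0 were higher and 5 lower in ACD mice (median 0.10), and 3 higher and 6 lower in control mice (median 0.07). All 4 shares, at most 7.79%, lay below the background.

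Cytosolic ribosomal proteins, the subunits of the ribosomes outside mitochondria, had positive medians too. Of 76 cytosolic ribosomal proteins 16 were higher and 0 lower in ACD mice (median 0.26), and 26 higher and 0 lower in control mice (median 0.36), shares higher of 21.1% and 34.2%. Rpl14 averaged 378 ± 75.6 FPKM in MrgprA3+ and 239 ± 20.5 FPKM in MrgprA3- neurons of ACD mice (0.64), and 412 ± 29.0 against 234 ± 20.3 FPKM in control mice (0.81). These medians exceed those of the mitochondrial ribosomal proteins, 0.15 and 0.19, and the lists were not tested against each other. With dermatitis the cytosolic list had medians of -0.23 in MrgprA3+ and -0.11 in MrgprA3- neurons, with 0 of 76 genes past the threshold in either (limma, 3 and 0 at an unadjusted p below 0.05).

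**Figure D5:**
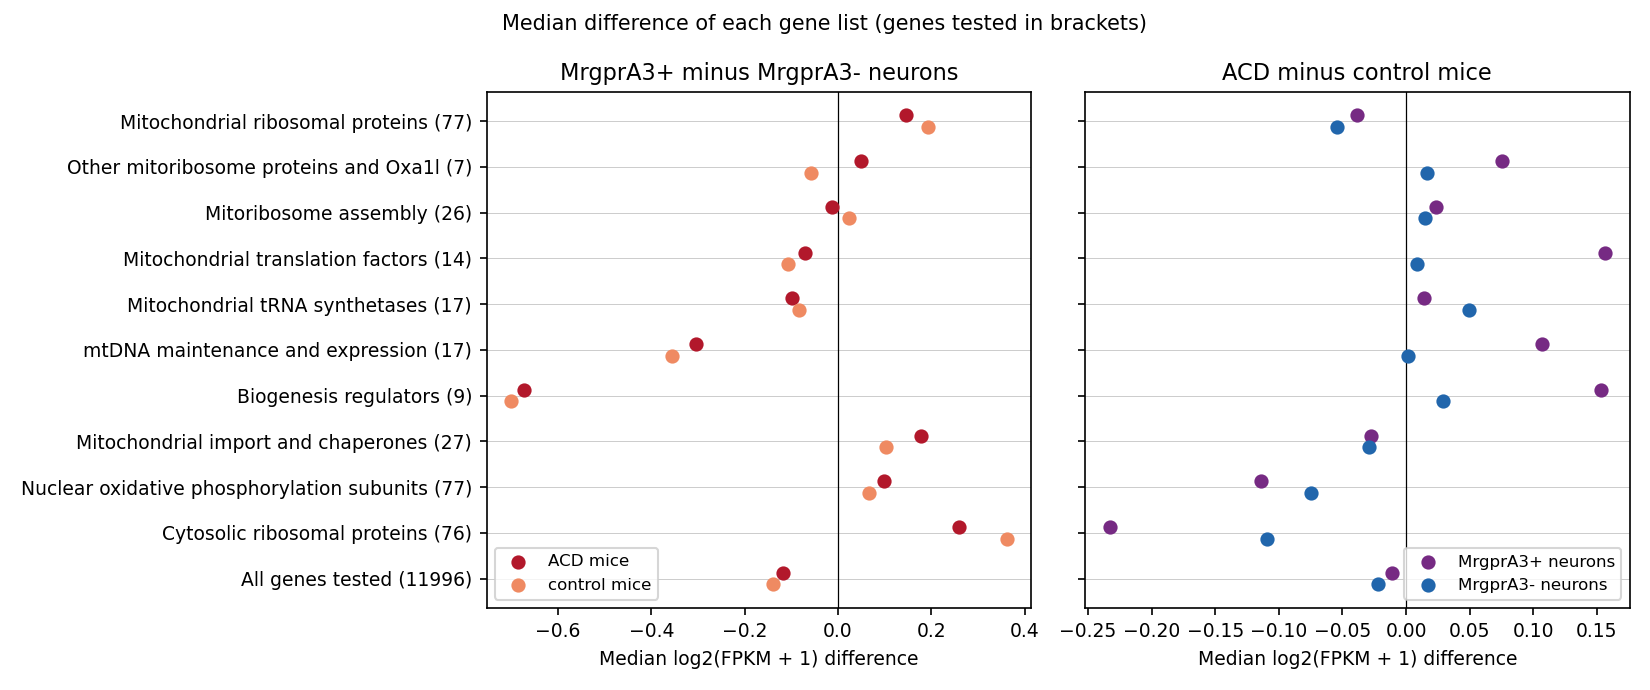
Median difference in mean log2(FPKM + 1) of each gene list, MrgprA3+ minus MrgprA3- neurons in ACD and control mice (left) and ACD minus control mice in MrgprA3+ and MrgprA3- neurons (right), with the number of genes tested in brackets. Mitochondrial ribosomal proteins (0.15 and 0.19) lie above the medians of all genes (-0.12 and -0.14) and below those of cytosolic ribosomal proteins (0.26 and 0.36).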

How the data were processed

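RNA of sorted neurons was made into polyadenylated libraries and sequenced, per the labels' protocols, and aligned with Bowtie2 to mm9, per the submitters' processing notes. Neither the version of Bowtie2 nor the annotation or quantification program is given in the sources used here. All values are FPKM, computed and deposited by the authors as 1 table of 18666 genes, with no scaling between libraries stated. Raw reads and MrgprA3+ ACD replicate 3 were not analysed here. Depth was estimated from the steps of low FPKM values of 1080 genes of 300 to 900 bp, of which 74.2% to 82.7% per library lay within 0.2 of a whole step. Lengths came from GRCm38, so depths are approximate and no count test was run.

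The 11996 genes that reached 1 FPKM in 4 or more libraries were fitted as log2(FPKM + 1) in limma 3.58.1 (statmod 1.5.0, R 4.3.3) with trend and robust options. Differences are of mean log2(FPKM + 1) and understate the change of low genes. Errors of differences are SEs of the model and errors of FPKM are SDs. P-values are two-sided, adjusted by Benjamini and Hochberg over all genes kept, with a threshold of 0.05. Population comparisons and the interaction used all 19 libraries, and dermatitis the compared groups alone. The fits were tested on simulated data with known changes. The labels give 5 mice per treatment but tie no library to a mouse, so p-values measure the spread between libraries, which may be partly technical. Both populations were sorted from every animal, and the main fits do not use that pairing. The members, lists and tests were chosen with earlier results of these data known. Members were named by rule if they passed in both population comparisons, had the 5 highest or 5 lowest levels, the 3 smallest p per direction for dermatitis or its interaction, or lay nearest the expression minimum, beside a fixed set (the S18 proteins, Mrps30, Mrps36, Mrpl12, Mrpl45 and Mrps12). Members that passed in 1 population comparison only, Mrpl48 close to the threshold, Mrpl46 for its spread and Mrpl55, changed by 1 library, fall outside this rule unless it holds them otherwise and were chosen after their values were seen. Of each other list, up to 4 genes of smallest p per comparison were named. Alternatives tried were no filter or a 5 FPKM minimum, a pseudocount of 0.1, median-ratio and quantile scaling, a replicate block, a variance weight per group, the other choice of libraries in the fit and leaving out each library. Reads of family pseudogenes (3 listed, at most 2.39 FPKM) could not be told from those of their parents.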

Additional observations from a re-analysis of the deposited data

Results flagged for a closer look

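In 7 of 156 groups of 4 or 5 libraries, 1 library of a named member stood apart from the others by Dixon's test at 95%, which chance alone gives in about 5% of groups. Mrpl50 was singled out in both MrgprA3+ groups, at 24.3 FPKM in MrgprA3+ ACD replicate 5 (others 33.1 to 33.8) and at 16.9 FPKM in MrgprA3+ control replicate 2 (others 22.5 to 24.2). Mrpl13 reached 51.8 FPKM in MrgprA3+ control replicate 4 (others 32.4 to 37.9), and Mrps5 28.7 FPKM in MrgprA3+ control replicate 1 (others 7.57 to 12.8). Mrpl1 was at 2.91 FPKM in MrgprA3+ control replicate 5 (others 8.00 to 9.92). In MrgprA3- libraries Mrpl39 was at 10.2 FPKM in ACD replicate 5 (others 12.3 to 12.7) and Mrps34 at 8.24 FPKM in control replicate 5 (others 38.8 to 48.2).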

How the results depend on the processing

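Over all alternatives, 312 of 330 counts and medians of the list stayed within 1.5 times the count or the spread between libraries. Many of these had little room to move. The counts for dermatitis and the interaction were 0 under every alternative. Leaving out a library of the other treatment cannot change the median of a population comparison. Of 1577 differences of named members 1479 kept their direction and their side of the threshold, 57 no longer passed, 32 passed in addition and 9 changed sign, none of them among differences that passed. Median-ratio rescaling gave 14 members higher in ACD mice, and 20 higher, 0 lower and a median of 0.30 in control mice. Rescaling moved the median of all genes to -0.04 in either treatment. In the main fit the median of the members exceeded that of all genes by 0.26 in ACD and 0.33 in control mice. The gap was 0.28 and 0.34 after this rescaling, but 0.16 and 0.22 with quantile normalization. A minimum of 5 FPKM gave 0.20 and 0.28. Fitting the compared groups alone gave 2 lower in ACD mice, quantile normalization 1 lower in control mice, and a variance weight per group 5 higher in control mice. Leaving out each library gave 3 to 16 higher and 0 to 2 lower members in ACD mice, and 5 to 12 higher and 1 to 2 lower in control mice. Over all genes the same fits gave 621 to 1010 higher and 1441 to 1976 lower in ACD mice. In control mice they gave 788 to 1111 higher and 1780 to 2393 lower. Members lower in control mice numbered 1 without MrgprA3- control replicate 1 or 5. Mrps15, Mrpl34 and Mrpl52 in ACD mice and Mrpl24, Mrpl36 and Mrps12 in control mice passed in 27 of 27 alternatives, Mrpl46 in control mice in 16. The 27 include each fit without a library of the other treatment. Such a fit cannot change the difference, only the shared estimate of the spread and the genes kept.

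The signs that changed belonged to small differences. In control mice Mrpl1 and Mrps28 were at 0.021 and 0.030 with quantile normalization. Leaving out each library gave -0.21 to 0.16 for Mrpl1, positive without MrgprA3+ control replicate 5, and -0.30 to 0.0089 for Mrps28, positive without the same library. Mrps18c ran from -0.029 to 0.16, negative without MrgprA3+ control replicate 1 or 3. In ACD mice Mrpl3 ran from -0.23 to 0.35, negative without MrgprA3+ ACD replicate 2 or 5 or MrgprA3- ACD replicate 4. The cause was not tested.

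With the replicate number as a block, 8 members were higher and 0 lower in ACD mice, and 8 higher and 2 lower in control mice, and 0 passed for dermatitis or the interaction. In control mice Mrpl34 (adjusted p 0.058) and Mrpl46 (0.0751) did not pass and Mrpl52 did (0.0424), and in ACD mice Mrpl20 passed too (0.0274). Mrpl36, Mrps15, Mrps18a and Mrpl52 then passed in both treatments. The labels do not say that a number marks a mouse. Deviations of same-numbered libraries of the populations correlated at -0.011 to 0.193 in ACD mice (median 0.128), against -0.101 to 0.051 for the 16 pairs of unlike number, with 3 of 4 same-numbered pairs above all of these. In control mice they correlated at -0.056 to 0.139 (median 0.072), against -0.144 to 0.151 for 20 pairs of unlike number. In ACD mice the numbers thus hint at shared animals, though not every same-numbered pair exceeded 0.1 in either treatment. For dermatitis the block pairs ACD with control libraries, which came from different animals. Such same-numbered pairs correlated at -0.348 to -0.014 in MrgprA3- neurons (median -0.181), against -0.231 to 0.380 for pairs of unlike number (median 0.031). In MrgprA3+ neurons they correlated at -0.012 to 0.035, against -0.052 to 0.069. As the labels tie no number to a mouse, the fit without the block is reported and the block is an alternative. The reported fit treats the libraries as independent, although both populations were sorted from every animal. Depth and 2 decimals limit members of few FPKM, above all Mrps30.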
